A study of Mus musculus with 9 samples.

Results

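The heat shock response and the folding machinery that it serves were followed through 39 genes, namely the heat shock factors Hsf1 and Hsf2 and the chaperones and co-chaperones of the cytosol and mitochondria. The genes were taken from the deposited expression table by symbol, each matched 1 of its 34745 genes, and all 39 had enough reads to be tested. RNA had been sequenced from 9 tumours that LLC cells, a Lewis lung carcinoma line labelled lung adenocarcinoma, had formed under the skin of male wild-type C57BL/6 hosts, which were randomised when tumours were near 100 mm3. The BTZ+anti-PDL1 group had received bortezomib (BTZ, 0.5 mg/kg), an inhibitor of the proteasome, with an antibody against PDL1 (10 mg/kg), the anti-PDL1 group the same antibody dose alone, and the isotype group a control antibody (10 mg/kg), all by intraperitoneal injection and with 3 tumours per group. The isotype group is named from its treatment label, although its libraries are titled blank. No group had BTZ alone, so the drug was seen here only on top of the antibody. The interval between the last dose and the collection of tumours is not given in the sources used here. No member passed the edgeR test in any of the 3 comparisons between the groups, and DESeq2 called 1 member, Dnajc21, in 1 of them.

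When unfolded proteins accumulate, as they can when the proteasome is blocked, HSF1 is released from chaperones, forms trimers and binds heat shock elements, which are inverted repeats of the unit GAA in the promoters of its target genes. The targets encode the stress-inducible HSP70 proteins, their J-domain partners, HSP110 exchange factors, HSP90, small heat shock proteins and chaperonins. Induction of Hspa1a, Hspa1b and Dnajb1 in cells is a widely used readout of proteasome inhibitors, and it is brief in many settings.

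The promoters below are shown because Hspa1a and Hspa1b, the inducible HSP70 genes, had the largest fold changes of all members against isotype tumours, and because Hspe1, which encodes the small subunit of the mitochondrial chaperonin, carries a full heat shock element. They run from 250 bases before to 50 bases after the annotated start and come from RefSeq on build GRCm38.p6. Capitals mark a heat shock motif. On the minus strand lie chr17:34959189-34959488 (Hspa1b) and chr17:34972107-34972406 (Hspa1a), and on the plus strand chr1:55087898-55088197 (Hspe1).
Hspa1b promoter: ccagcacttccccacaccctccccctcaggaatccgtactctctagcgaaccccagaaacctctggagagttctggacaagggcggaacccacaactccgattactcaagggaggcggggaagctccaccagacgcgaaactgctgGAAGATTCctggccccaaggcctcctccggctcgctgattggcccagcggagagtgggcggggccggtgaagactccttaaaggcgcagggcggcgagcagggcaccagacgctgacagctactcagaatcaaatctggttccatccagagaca
Hspa1a promoter: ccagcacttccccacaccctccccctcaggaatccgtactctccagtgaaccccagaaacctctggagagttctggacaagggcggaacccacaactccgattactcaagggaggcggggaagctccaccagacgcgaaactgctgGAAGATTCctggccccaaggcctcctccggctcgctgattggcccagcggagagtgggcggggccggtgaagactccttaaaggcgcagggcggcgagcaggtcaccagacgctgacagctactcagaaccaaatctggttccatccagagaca
Hspe1 promoter: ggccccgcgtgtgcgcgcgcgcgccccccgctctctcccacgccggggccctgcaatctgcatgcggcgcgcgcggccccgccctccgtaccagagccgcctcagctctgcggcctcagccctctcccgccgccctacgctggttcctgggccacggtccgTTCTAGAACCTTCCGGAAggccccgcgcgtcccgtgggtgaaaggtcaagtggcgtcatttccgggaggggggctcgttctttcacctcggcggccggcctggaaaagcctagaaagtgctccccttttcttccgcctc
The Hspa1b and Hspa1a windows had the same base at 296 of 300 positions (98.7%), and both held GAANNTTC with its first base 104 bases before the start. Hspe1 held the longer motif with its first base 89 bases before the start, and Hspd1, which is transcribed the other way from the same region, shares it.

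Windows were available for 33 of the 39 members (43 windows in all). A motif of at least 3 units was searched as GAANNTTC followed by NNGAA and as TTCNNGAA followed by NNTTC, which are the same sites read on opposite strands. It stood in 7 of the 43 member windows and in 0.603% of the 32851 promoter windows of the genome. The 5 genes that held it were Chordc1, Dnajb6, Hspd1, Hspe1 and Hsph1. For Dnajb6 and Hsph1 overlapping windows held the same site, and Hspd1 and Hspe1 share a site, so the 7 windows are not independent. A motif of 2 units, GAANNTTC or TTCNNGAA, each of which reads the same on both strands and overlaps the longer forms, stood in 18 member windows against 15.1% of all windows. Only exact matches were sought, so heat shock elements with mismatched units were missed, in the windows of Hspa1a and Hspa1b as elsewhere. A match describes letters only, and it gives no evidence that HSF1 was bound in these tumours.

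Column totals were 18.52 M to 21.51 M counts (M, mega), and 14506 genes were tested. The lowest member count in any tumour was 13. Of markers of the label, Krt18 (56.7 to 115 CPM) and Krt8 (3.66 to 27.1 CPM), which encode simple epithelial keratins, had counts in all 9 tumours, as did Cdh1 (1.38 to 9.40 CPM), Krt19 (0.054 to 3.82 CPM) and the lung gene Napsa (4.01 to 9.06 CPM). Epcam had 11 counts in all, and the lung genes Nkx2-1 and Sftpc had none. Skeletal muscle markers (all 17 of the list detected) summed to 7.31 to 1019 CPM in BTZ+anti-PDL1 tumours, 131 to 1284 CPM in anti-PDL1 tumours and 6.77 to 3467 CPM in isotype tumours, and the highest tumours were BTZ+anti-PDL1 replicate 1, anti-PDL1 replicate 1 and isotype replicate 3. T cell markers (all 14 detected) summed to 34.0 to 53.6 CPM in BTZ+anti-PDL1 tumours, 33.4 to 43.0 CPM in anti-PDL1 tumours and 7.49 to 41.0 CPM in isotype tumours, and the low value was isotype replicate 2. Every gene of the 8 lists of cell type markers had a count in at least 1 tumour. These are bulk samples, in which fewer cells of a type and less RNA per cell cannot be told apart.

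The members took 1.44% to 1.73% of all counts in a tumour. Levels below are in CPM (counts per mega-count of the library, scaled between tumours by TMM), given in order of replicate number, and levels of single genes are compared with each other only per kilobase of transcript. On that scale Hsp90ab1, the constitutive cytosolic HSP90, stood first at 1835 CPM per kilobase and Hspa8, the constitutive HSP70, followed at 1181. The inducible Hspa1b and Hspa1a were at 12.8 and 5.58, and the small heat shock gene Hspb1 at 4.63. Most members varied little. The highest tumour was less than 1.5-fold above the lowest for 30 of 39 members, and the median of this range was 1.3-fold. The within-group SD on the log2 scale had a median of 0.11 and ran from 0.056 to 1.3.

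**Figure D1:**
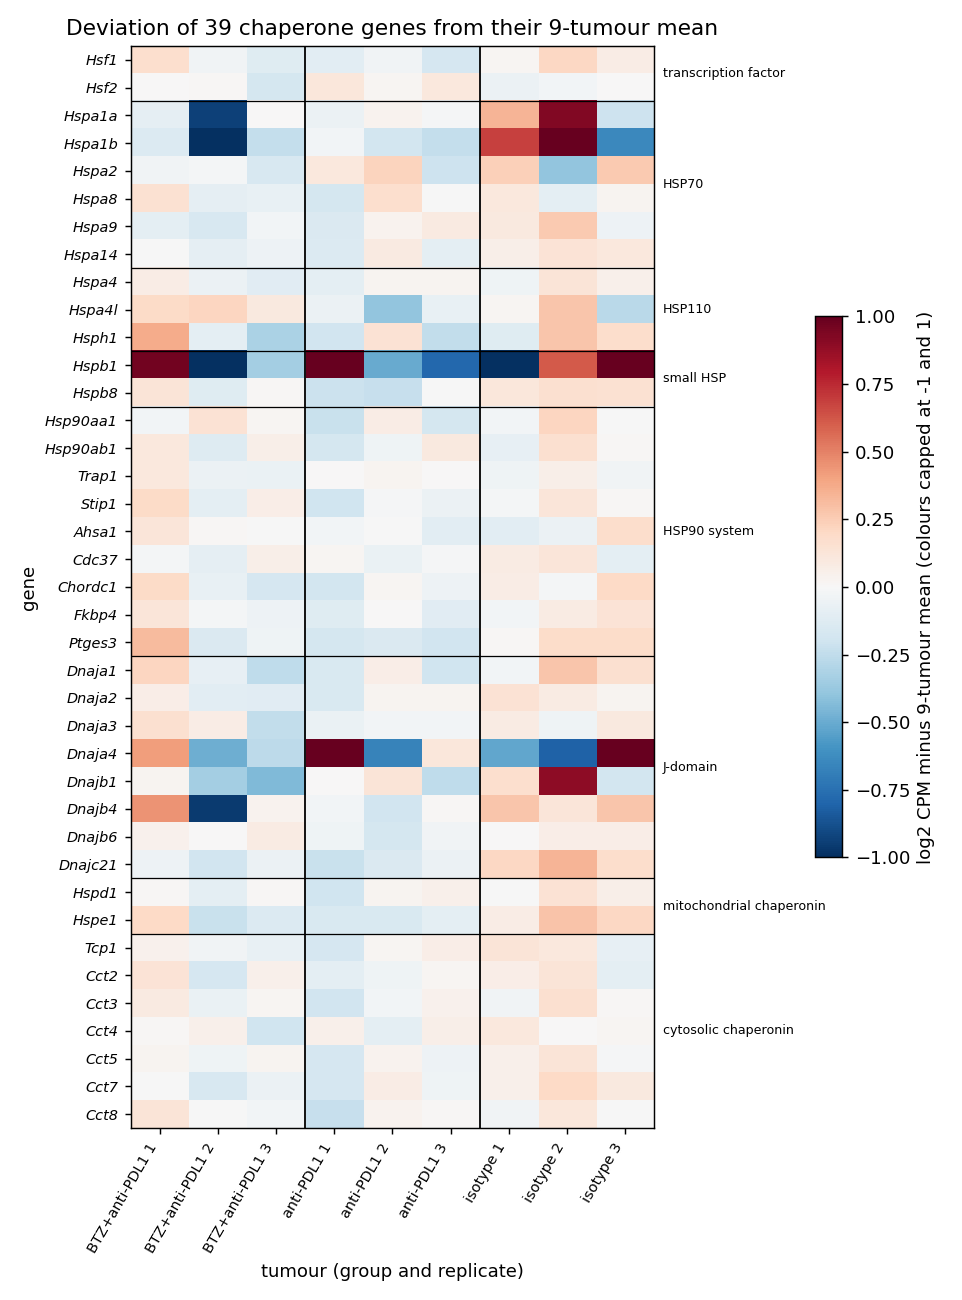
Level of the 39 members in each tumour, as the log2 CPM deviation from the 9-tumour mean (colour, capped at -1 and 1), with genes in rows ordered by role and tumours in columns by group. The deep colours lie in a few rows (Hspa1a, Hspa1b, Hspb1, Dnaja4, Dnajb1, Dnajb4), and isotype replicate 2 is the highest tumour for 19 of the 39 members.

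BTZ+anti-PDL1 tumours were first set against anti-PDL1 tumours, which asks what the proteasome inhibitor added to the antibody. No member passed the edgeR quasi-likelihood test at a Benjamini-Hochberg adjusted p under 0.05 (lowest 0.849), and 0.0138% of all genes did. DESeq2 called 0 of the members to which it gave an adjusted p (it gave Dnaja4 none) and 0.47% of all such genes. Of the 39 log2 fold changes 24 were above 0 and 15 below, with a median of 0.041 against 0.0029 over all genes tested, of which 50.8% were above and 49.2% below 0. At an unadjusted p under 0.05 there was 1 member with a higher value, Hspa4l, and 0 with a lower one, where 3.15% of all genes stood higher and 2.67% lower. The precision allows a bound on induction in most members, each taken on its own. In 33 of 39 members the upper end of the 95% confidence interval lay under 0.5 on the log2 scale, which is 1.41-fold. The 6 others, whose induction was not bounded in this way, were Hspa1b, Hspa4l, Hsph1, Hspb1, Dnaja4 and Dnajb4. The share of all genes tested with such an upper end was not computed, here or against isotype. Between these groups the marker sums of 2 other cell types did not overlap. Fibroblast markers (9 genes) summed to 8045 to 8284 CPM in BTZ+anti-PDL1 and 9027 to 12134 CPM in anti-PDL1 tumours, and endothelial markers (8 genes) to 181 to 218 CPM in BTZ+anti-PDL1 and 222 to 277 CPM in anti-PDL1 tumours. Their part in the members' values was not tested.

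Against the isotype tumours, BTZ+anti-PDL1 tumours again had no called member (lowest edgeR adjusted p 0.34, with 0.00689% of all genes called). DESeq2 called 1 member, Dnajc21, and 0.768% of all genes with an adjusted p. There were 34 members below 0 and 5 above, with a median log2 fold change of -0.083 against -0.0011 over all genes tested, of which 50.3% were below and 49.7% above 0. At an unadjusted p under 0.05 there were 4 members lower (Dnajc21, Cct7, Hspa1a and Hspa1b) and 0 higher, where 4.18% of all genes were lower and 4.42% higher. The upper end of the interval lay under 0.5 in 37 of 39 members, the exceptions being Hspb1 and Dnaja4. With the deposited FPKM values, log2(FPKM + 1) and limma, 38 members were kept, of which 28 were below 0 and 10 above. Their median was then -0.058, against 0.019 over all genes kept in that setting.

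In anti-PDL1 against isotype tumours no member was called either (lowest edgeR adjusted p 0.763, with 0.0138% of all genes called), and DESeq2 called 0 members and 0.104% of all genes with an adjusted p. There were 36 members below 0 and 3 above (Hsf2, Trap1 and Dnaja4), with a median of -0.13 against -0.0034 over all genes tested, of which 51.0% were below and 49.0% above 0. At an unadjusted p under 0.05 there were 5 members lower (Dnajc21, Hspb8, Hspe1, Ptges3 and Hsf1) and 0 higher, where 3.34% of all genes were lower and 3.01% higher. Both comparisons with isotype share the same 3 isotype tumours, so their low sides are not independent of each other. Erythroid markers (7 genes) summed to 45.3 to 89.1 CPM in anti-PDL1 and 135 to 274 CPM in isotype tumours, without overlap, and their part in the members' values was not tested.

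**Figure D2:**
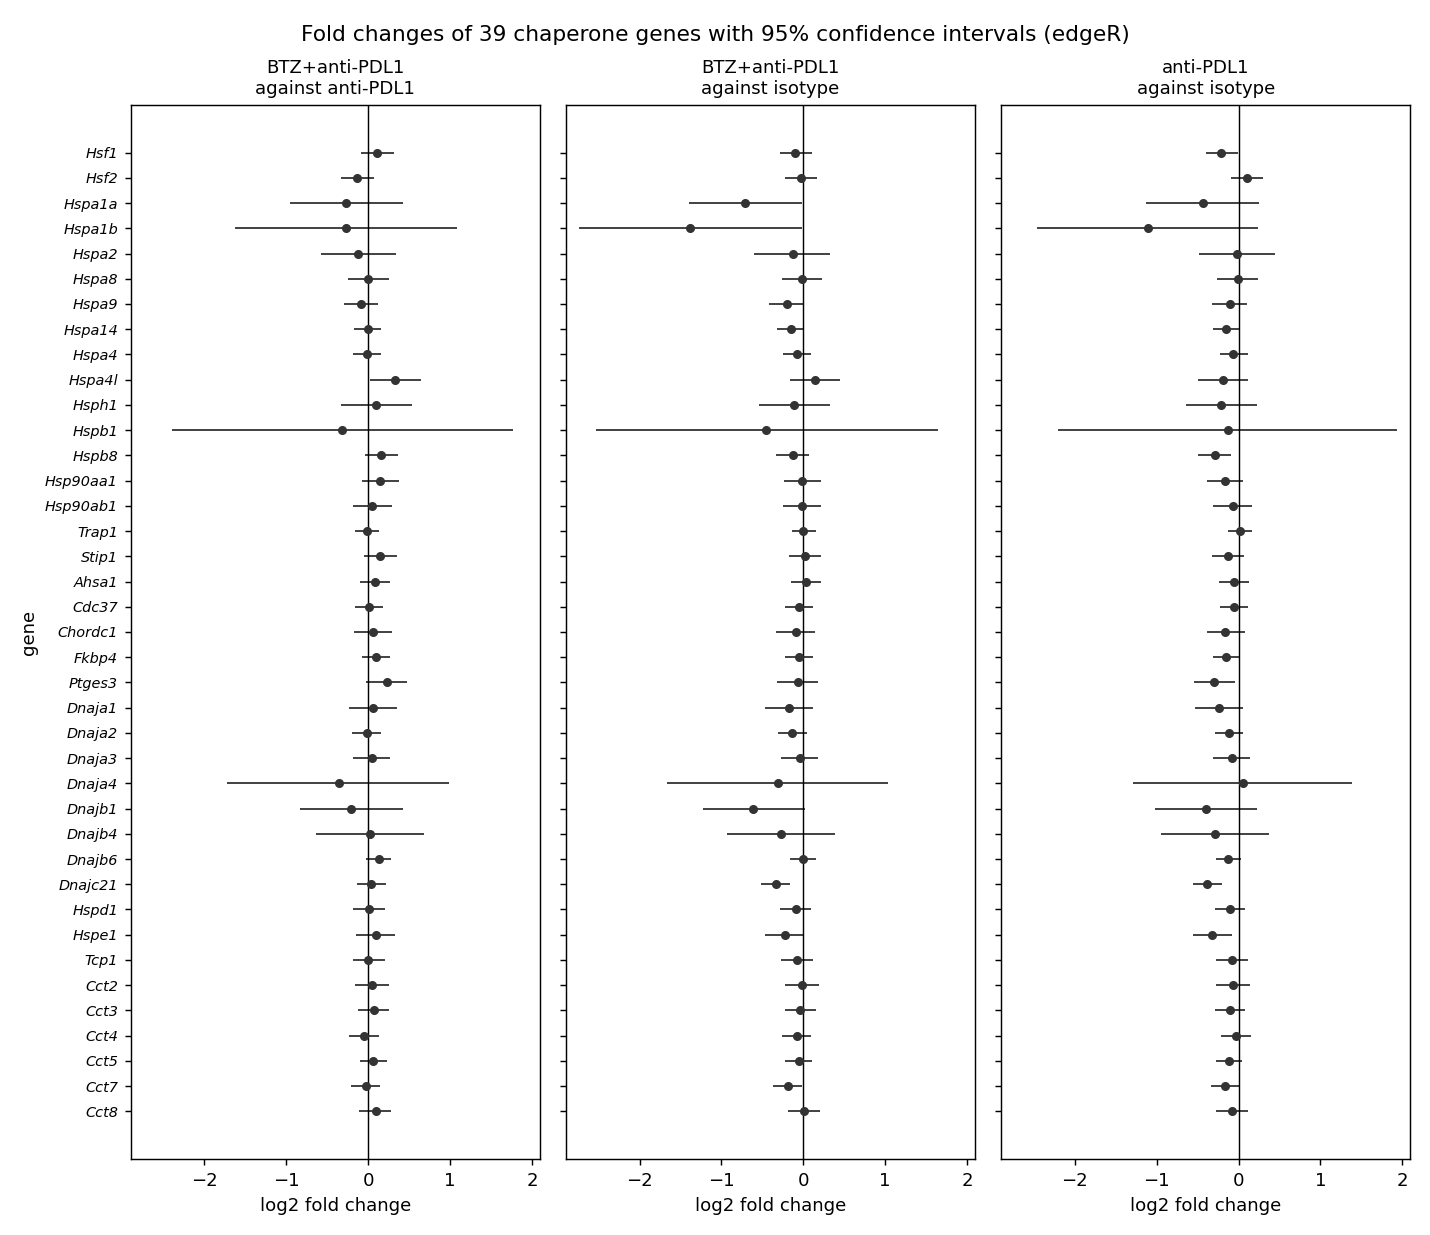
Log2 fold changes of the 39 members (points) with 95% confidence intervals (lines) from edgeR in 3 comparisons, each of 3 tumours against 3. The points lie near 0 in the left panel, where the upper end is under 0.5 for 33 members, and mostly left of 0 in the others, while Hspa1b, Hspb1 and Dnaja4 have the widest intervals.

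Among the transcription factors, Hsf1, which encodes the main activator of the heat shock response, had 86.8, 75.6 and 71.0 CPM in BTZ+anti-PDL1 tumours, 72.0, 75.5 and 68.9 CPM in anti-PDL1 tumours and 78.6, 89.5 and 81.4 CPM in isotype tumours. All 3 anti-PDL1 tumours lay below all 3 isotype tumours, while the BTZ+anti-PDL1 tumours overlapped both. The log2 fold change was -0.21 ± 0.088 (SE, n = 3 tumours each) in anti-PDL1 against isotype tumours (edgeR adjusted p = 0.763). Hsf1 activity is set largely by its protein, so its RNA does not measure it. Hsf2, which encodes a second heat shock factor that can form trimers with HSF1, had 23.1, 23.3 and 20.5 CPM in BTZ+anti-PDL1 tumours, 25, 23.4 and 24.8 CPM in anti-PDL1 tumours and 22.2, 22.7 and 23.2 CPM in isotype tumours. The anti-PDL1 tumours lay above both other groups without overlap, by small margins. Its log2 fold change was -0.13 ± 0.0877 in BTZ+anti-PDL1 against anti-PDL1 tumours (adjusted p = 0.886 by edgeR).

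The inducible HSP70 genes varied most among the well-counted members, and their widest spread lay in the isotype group. Hspa1b (chr17:34956436-34959238, mm10) had 27.3, 14.4 and 25.5 CPM in BTZ+anti-PDL1 tumours, 29.4, 26.4 and 25.4 CPM in anti-PDL1 tumours and 48.1, 108 and 19.2 CPM in isotype tumours. Isotype replicate 2 was the highest and BTZ+anti-PDL1 replicate 2 the lowest, and isotype replicate 3 lay below 2 of the BTZ+anti-PDL1 tumours, so the groups overlapped. The log2 fold change was -1.38 ± 0.577 in BTZ+anti-PDL1 against isotype tumours (edgeR adjusted p = 0.573), -1.11 ± 0.572 in anti-PDL1 against isotype tumours (adjusted p = 0.77) and -0.27 ± 0.573 in BTZ+anti-PDL1 against anti-PDL1 tumours (adjusted p = 0.969). Isotype replicate 2 also had the lowest T cell marker sum (7.49 CPM) and the lowest macrophage marker sum, with 2039 CPM over 12 genes against 2877 to 4069 CPM in the other 8 tumours. Its endothelial marker sum (321 CPM) was the highest of all tumours. Its erythroid sum (241 CPM) lay below only that of isotype replicate 3 (274 CPM). Without isotype replicate 2 the values against isotype were -0.58 for BTZ+anti-PDL1 and -0.31 for anti-PDL1 tumours. Without the muscle-richest tumour of each group, among them isotype replicate 3, they were instead -1.97 for BTZ+anti-PDL1 and -1.59 for anti-PDL1 tumours (edgeR adjusted p = 0.361 and 0.581). The part of the cell content in this difference was not tested. The interval in BTZ+anti-PDL1 against anti-PDL1 tumours ran from -1.62 to 1.08, which is too wide to bound an effect of BTZ on this gene closely. Its width rests on a spread estimated over all 3 groups, including the isotype group (SD 45.2 CPM). The SD was 7.01 CPM in BTZ+anti-PDL1 and 2.09 CPM in anti-PDL1 tumours. Without isotype replicate 2 the edgeR p in this comparison was 0.488 instead of 0.648, with the log2 fold change still at -0.27.

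Hspa1a (chr17:34969190-34972156), its neighbour, had 14.8, 8.23 and 15.8 CPM in BTZ+anti-PDL1 tumours, 15.1, 16.1 and 15.6 CPM in anti-PDL1 tumours and 19.9, 29.8 and 13.6 CPM in isotype tumours. Its order of tumours resembled that of Hspa1b, with isotype replicate 2 at the top and BTZ+anti-PDL1 replicate 2 at the bottom. The log2 fold change against isotype was -0.71 ± 0.306 in BTZ+anti-PDL1 tumours (edgeR adjusted p = 0.573) and -0.44 ± 0.304 in anti-PDL1 tumours (adjusted p = 0.825). Without isotype replicate 2 the values were -0.37 in BTZ+anti-PDL1 and -0.10 in anti-PDL1 tumours. Without the muscle-richest tumour of each group they were -1.05 in BTZ+anti-PDL1 and -0.65 in anti-PDL1 tumours. The transcripts of both genes match at 99.2% over 2201 bases, so reads may have been assigned to either, and their sum is the safer measure. The sum was 42.1, 22.6 and 41.3 CPM in BTZ+anti-PDL1 tumours, 44.5, 42.5 and 41.0 CPM in anti-PDL1 tumours and 68.0, 138 and 32.8 CPM in isotype tumours. Its log2 fold change was -0.27 ± 0.492 in BTZ+anti-PDL1 against anti-PDL1 tumours (adjusted p = 0.968 by edgeR) and -1.17 ± 0.495 in BTZ+anti-PDL1 against isotype tumours (adjusted p = 0.579). As a share of the CPM summed over 5 cytosolic HSP70 members, which is not scaled by transcript length, the inducible pair took 0.824% to 1.48% in BTZ+anti-PDL1 tumours, 1.29% to 1.71% in anti-PDL1 tumours and 1.10% to 4.83% in isotype tumours.

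**Figure D3:**
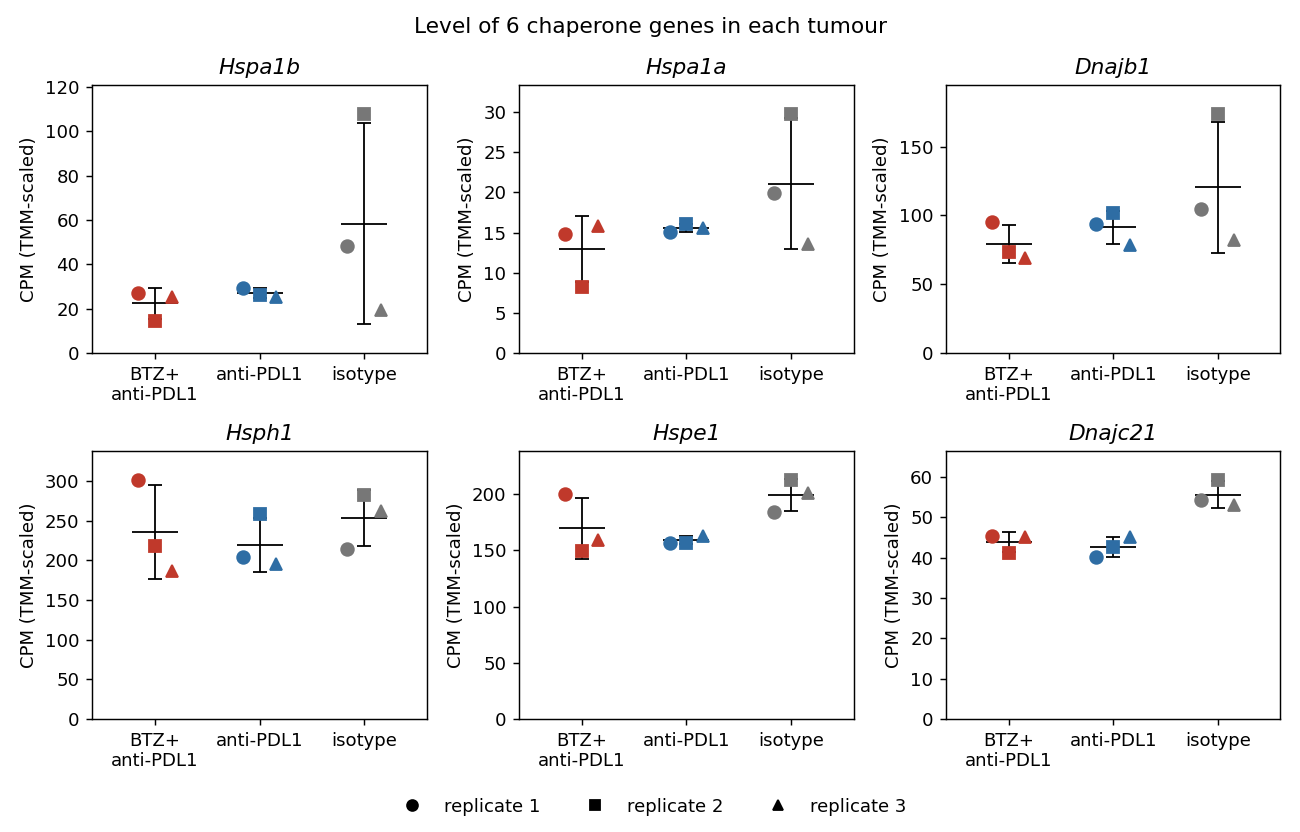
CPM (TMM-scaled) of 6 members in each tumour, with groups on the x axis, 1 symbol per replicate number, and the group mean with its SD (n = 3) as a line and bar. Isotype replicate 2 stands at the top for Hspa1b (108 CPM), Hspa1a (29.8 CPM) and Dnajb1 (174 CPM), while for Dnajc21 all 3 isotype tumours (53.1 to 59.3 CPM) lie above the 6 others.

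Of the constitutive HSP70 genes, Hspa8 had 3131, 2649.6 and 2675 CPM in BTZ+anti-PDL1 tumours, 2490.4, 3165 and 2805 CPM in anti-PDL1 tumours and 3039, 2629 and 2865 CPM in isotype tumours. The groups overlapped fully, and the fold change in BTZ+anti-PDL1 against isotype tumours was -0.013 ± 0.110 on the log2 scale (edgeR adjusted p = 0.98). Hspa9, the HSP70 of the mitochondrial matrix, averaged 579 ± 26.4 CPM in BTZ+anti-PDL1, 616 ± 51.5 CPM in anti-PDL1 and 666 ± 71.3 CPM in isotype tumours (SD, n = 3 each). Hspa14, an HSP70 that associates with ribosomes, averaged 67.5 ± 1.96 CPM in BTZ+anti-PDL1, 67.6 ± 5.87 CPM in anti-PDL1 and 74.9 ± 1.95 CPM in isotype tumours. Its BTZ+anti-PDL1 values lay below all isotype values. Hspa2, best known from the testis, stayed between 4.60 and 7.27 CPM. The log2 fold changes of the 6 HSP70 members ran from -0.27 to -0.00086 in BTZ+anti-PDL1 against anti-PDL1 tumours.

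The HSP110 genes encode the exchange factors that reset HSP70 and help it to dissolve aggregates. Hspa4l, which is prominent in the testis and inducible by stress in some cells, had 157, 159.5 and 147 CPM in BTZ+anti-PDL1 tumours, 132, 105 and 131 CPM in anti-PDL1 tumours and 139.9, 167 and 114 CPM in isotype tumours. All BTZ+anti-PDL1 tumours lay above all anti-PDL1 tumours, and the isotype tumours spanned both. This gave the smallest p of any member in that comparison, at a log2 fold change of 0.33 ± 0.136 (interval 0.027 to 0.64, edgeR adjusted p = 0.849). Leaving out single tumours moved it between 0.23 and 0.39. Only Hspa4l and Dnajb6 were higher without overlap in BTZ+anti-PDL1 than in anti-PDL1 tumours, and only Hsf2 was lower, where 7.33% and 6.99% of all genes showed each pattern.

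Hsph1, the HSP110 gene most strongly driven by HSF1, had 302, 218 and 187 CPM in BTZ+anti-PDL1 tumours, 204, 258 and 196 CPM in anti-PDL1 tumours and 214, 283 and 263 CPM in isotype tumours. The highest and the lowest of all 9 tumours were both BTZ+anti-PDL1 tumours. Its log2 fold change was 0.10 ± 0.191 in BTZ+anti-PDL1 against anti-PDL1 tumours and -0.11 ± 0.191 against isotype tumours (edgeR adjusted p = 0.968 and 0.887). Hspa4, the constitutive member, stayed between 319.5 and 379 CPM.

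Small heat shock proteins hold unfolded proteins in a refoldable state without using ATP. Hspb1, the classical inducible one, had 6.31, 1.55 and 2.55 CPM in BTZ+anti-PDL1 tumours, 8.85, 2.28 and 1.87 CPM in anti-PDL1 tumours and 0.997, 4.95 and 8.26 CPM in isotype tumours. Hspb1 also shares 99.4% of 630 bases with Hsp25-ps1, which held 19.1% as many counts. The 3 highest tumours were those with the highest muscle marker sums (1019, 1284 and 3467 CPM), 1 in each group. Its interval was the widest of all members in BTZ+anti-PDL1 against anti-PDL1 tumours, from -2.40 to 1.77, with a log2 fold change of -0.32 ± 0.897 (edgeR adjusted p = 0.973). Without the muscle-richest tumour of each group the values were -0.019 against anti-PDL1 and -0.54 against isotype tumours. Hspb8, which works with BAG3 in clearing aggregates by autophagy, had 54.9, 46.1 and 50.7 CPM in BTZ+anti-PDL1 tumours, 43.3, 42.8 and 49.9 CPM in anti-PDL1 tumours and 54.2, 56.0 and 55.8 CPM in isotype tumours. All anti-PDL1 tumours lay below all isotype tumours, at a log2 fold change of -0.29 ± 0.0888 (edgeR adjusted p = 0.763). BTZ+anti-PDL1 tumours overlapped both groups, with a log2 fold change of 0.16 ± 0.0889 against anti-PDL1 tumours (adjusted p = 0.886 by edgeR).

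**Figure D4:**
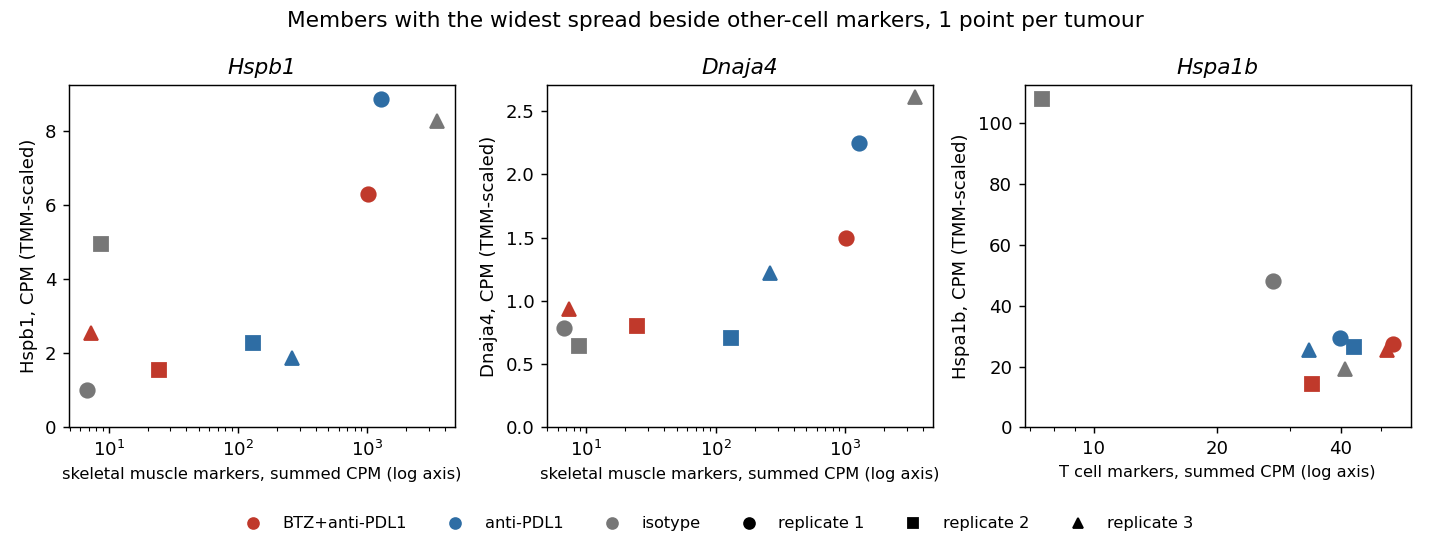
CPM (TMM-scaled, linear y axis) of Hspb1 and Dnaja4 against the summed skeletal muscle markers, and of Hspa1b against the summed T cell markers (log x axes), with 1 point per tumour coloured by group. The tumours with muscle sums above 1000 CPM hold the 3 highest values of Hspb1 and Dnaja4, and isotype replicate 2 combines the lowest T cell sum (7.49 CPM) with the highest Hspa1b (108 CPM).

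HSP90 and its co-chaperones mature kinases and steroid receptors. Hsp90aa1, the inducible HSP90 gene, had 636, 714 and 657 CPM in BTZ+anti-PDL1 tumours, 556, 681 and 573 CPM in anti-PDL1 tumours and 635, 751 and 647 CPM in isotype tumours. The constitutive Hsp90ab1 had 4948, 4218 and 4808 CPM in BTZ+anti-PDL1 tumours, 4079, 4469.5 and 4931 CPM in anti-PDL1 tumours and 4352, 5153 and 4654 CPM in isotype tumours. Both overlapped between all groups. Hsp90aa1 made up 11.4% to 14.5% of the counts of the pair, not scaled by length, in BTZ+anti-PDL1 tumours, 10.4% to 13.2% in anti-PDL1 tumours and 12.2% to 12.7% in isotype tumours. A near-identical copy, Gm12346 (99.4% over 2208 bases), held 34.2% as many counts as Hsp90aa1. The log2 fold change of Hsp90aa1 was 0.15 ± 0.101 in BTZ+anti-PDL1 against anti-PDL1 tumours and -0.018 ± 0.101 against isotype tumours (edgeR adjusted p = 0.886 and 0.965), and with the copy added it was 0.10 ± 0.0877 against anti-PDL1 tumours.

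Among the co-chaperones, Ptges3, which encodes p23 and stabilises the closed HSP90, had 126, 91.6 and 98.5 CPM in BTZ+anti-PDL1 tumours, 89.7, 91.7 and 88.6 CPM in anti-PDL1 tumours and 102, 115 and 115 CPM in isotype tumours. All anti-PDL1 tumours lay below all isotype tumours (log2 fold change -0.30 ± 0.111, edgeR adjusted p = 0.763), and BTZ+anti-PDL1 replicate 1 was the highest of all. Its fold change in BTZ+anti-PDL1 against anti-PDL1 tumours was 0.23 ± 0.111 (adjusted p = 0.877 by edgeR), and 0.075 without the muscle-richest tumours. Stip1, which links HSP70 to HSP90, had 437, 358 and 402 CPM in BTZ+anti-PDL1 tumours, 333, 380.4 and 367 CPM in anti-PDL1 tumours and 377, 416 and 387 CPM in isotype tumours. Its groups overlapped, at a log2 fold change of 0.15 ± 0.0888 in BTZ+anti-PDL1 against anti-PDL1 tumours (edgeR adjusted p = 0.886), which was 0.078 without BTZ+anti-PDL1 replicate 1 and 0.024 without the muscle-richest tumours. The 5 others were Ahsa1 (activator of the HSP90 ATPase), Cdc37 (kinase adaptor), Chordc1 and Fkbp4 (HSP90 partners) and Trap1 (mitochondrial HSP90). Their mean levels ran from 82.4 CPM (Chordc1 in anti-PDL1 tumours) to 390.3 CPM (Fkbp4 in isotype tumours), and their fold changes in BTZ+anti-PDL1 against anti-PDL1 tumours from -0.016 for Trap1 to 0.098 for Fkbp4. The intervals of all 9 genes of the HSP90 system lay within ±0.5 in BTZ+anti-PDL1 against each of the other groups.

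J-domain proteins deliver unfolded proteins to HSP70 and trigger its ATPase. Dnajb1, the main inducible one, had 95.1, 73.7 and 68.9 CPM in BTZ+anti-PDL1 tumours, 93.6, 102 and 78.5 CPM in anti-PDL1 tumours and 105, 174 and 82.3 CPM in isotype tumours. As with Hspa1b, isotype replicate 2 stood highest, and the groups overlapped. The log2 fold change was -0.61 ± 0.269 in BTZ+anti-PDL1 against isotype tumours (edgeR adjusted p = 0.585). It was -0.24 without isotype replicate 2 and -0.97 without the muscle-richest tumour of each group. In BTZ+anti-PDL1 against anti-PDL1 tumours it was -0.21 ± 0.268 with an interval from -0.83 to 0.42 (edgeR adjusted p = 0.942), so the upper end allows less than 1.41-fold induction.

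Dnajc21 (chr15:10446756-10470516), which encodes a J-domain protein of ribosome biogenesis, had 45.3, 41.0 and 45.1 CPM in BTZ+anti-PDL1 tumours, 40.2, 42.5 and 45.0 CPM in anti-PDL1 tumours and 54.3, 59.3 and 53.1 CPM in isotype tumours. Every tumour of both groups given anti-PDL1 lay below every isotype tumour. It had the smallest p of all members in both comparisons with isotype, with a log2 fold change of -0.34 ± 0.0802 in BTZ+anti-PDL1 tumours (edgeR adjusted p = 0.34) and -0.38 ± 0.0802 in anti-PDL1 tumours (adjusted p = 0.763). By DESeq2 the adjusted p was 0.0475 in BTZ+anti-PDL1 and 0.063 in anti-PDL1 tumours. Leaving out single tumours kept the edgeR values between -0.37 and -0.29 in BTZ+anti-PDL1 and between -0.43 and -0.33 in anti-PDL1 tumours. In BTZ+anti-PDL1 against anti-PDL1 tumours the value was 0.041 ± 0.0802 (edgeR adjusted p = 0.969).

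Dnajb6, which holds aggregation-prone proteins in check, had 49.3, 47.9 and 50.7 CPM in BTZ+anti-PDL1 tumours, 46.5, 42.3 and 46.6 CPM in anti-PDL1 tumours and 47.9, 50 and 50.1 CPM in isotype tumours. The anti-PDL1 tumours lay below both other groups, and the fold change in BTZ+anti-PDL1 against anti-PDL1 tumours was 0.13 ± 0.0695 on the log2 scale (edgeR adjusted p = 0.886). Dnaja4, another J-domain gene, was rare, at 1.5, 0.801 and 0.937 CPM in BTZ+anti-PDL1 tumours, 2.25, 0.710 and 1.22 CPM in anti-PDL1 tumours and 0.787, 0.643 and 2.61 CPM in isotype tumours. Its highest tumour in each group was again the one with the highest muscle marker sum, and what muscle contributed to it was not tested. Its locus also overlaps the coding gene Wdr61 on the opposite strand by 1581 bases, and the strand setting of the counting is not given in the sources used here. Dnajb4 stood at 13.6 CPM in BTZ+anti-PDL1 replicate 2, against 23.2 to 36.1 CPM in the other 8 tumours. Dnaja1 and Dnaja2, general partners of HSP70, and the mitochondrial Dnaja3 had fold changes between -0.019 and 0.061 in BTZ+anti-PDL1 against anti-PDL1 tumours.

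The chaperonins are chambers in which proteins fold enclosed. Hspd1, the large mitochondrial subunit, had 665, 617 and 668 CPM in BTZ+anti-PDL1 tumours, 576, 674 and 685 CPM in anti-PDL1 tumours and 659.8, 733 and 687 CPM in isotype tumours, with overlap between all groups. Its copy Hspd1-ps3 (99.0% identical) held 29.7% as many counts. Hspe1, its co-chaperonin, had 200, 149.6 and 159 CPM in BTZ+anti-PDL1 tumours, 157, 157 and 163 CPM in anti-PDL1 tumours and 184, 213 and 201 CPM in isotype tumours. The anti-PDL1 tumours lay below all isotype tumours (log2 fold change -0.32 ± 0.106, edgeR adjusted p = 0.763), and BTZ+anti-PDL1 replicate 1 reached the isotype range, giving -0.23 ± 0.106 in BTZ+anti-PDL1 against isotype tumours (adjusted p = 0.581). For the partner Hspd1 the values against isotype were -0.093 ± 0.0839 in BTZ+anti-PDL1 tumours (edgeR adjusted p = 0.77) and -0.10 ± 0.0839 in anti-PDL1 tumours (adjusted p = 0.84).

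The cytosolic chaperonin folds actin and tubulin, and 7 of its subunit genes were members. Their summed level was 3368, 3065 and 3162 CPM in BTZ+anti-PDL1 tumours, 2911, 3214 and 3244 CPM in anti-PDL1 tumours and 3329.6, 3496 and 3164 CPM in isotype tumours. Each subunit gene stayed within a 1.23-fold to 1.28-fold range over all 9 tumours. Their fold changes ran from -0.049 to 0.090 in BTZ+anti-PDL1 against anti-PDL1 tumours, and all 7 intervals lay within ±0.5 there and against isotype. Cct7 had 336, 302 and 323 CPM in BTZ+anti-PDL1 tumours, 300.2, 354 and 327 CPM in anti-PDL1 tumours and 349.5, 386 and 361 CPM in isotype tumours. All BTZ+anti-PDL1 tumours lay below all isotype tumours, at a log2 fold change of -0.19 ± 0.0792 (edgeR adjusted p = 0.565).

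In BTZ+anti-PDL1 against isotype tumours, 3 members stood lower without overlap (Hspa14, Dnajc21 and Cct7) and 0 higher, where 6.03% and 6.96% of all genes did. In anti-PDL1 against isotype tumours, 8 members stood lower without overlap (Hsf1, Hspb8, Ptges3, Dnaja2, Dnajb4, Dnajb6, Dnajc21 and Hspe1) and 1 higher (Hsf2), where 6.61% and 6.08% of all genes did. Isotype replicate 2 was the highest of all 9 tumours for 19 members and anti-PDL1 replicate 1 the lowest for 15. Without isotype replicate 2 the median of the members was -0.046 in BTZ+anti-PDL1 against isotype tumours (28 below 0) and -0.087 in anti-PDL1 against isotype tumours (36 below 0). BTZ+anti-PDL1 replicate 1 was the highest tumour for 8 members, and without it the median in BTZ+anti-PDL1 against anti-PDL1 tumours was -0.041, with 24 members below 0. Without the muscle-richest tumour of each group the log2 fold change in that comparison was -0.17 for both Hspa8 and Hsph1, -0.13 for Cct7 and -0.055 for Hspe1.

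Other genes of protein folding and degradation outside the 39 were read in 4 lists, and none of their genes was called by edgeR in any comparison. Of 55 further cytosolic chaperone and co-chaperone genes tested, 26 were above and 29 below 0 in BTZ+anti-PDL1 against anti-PDL1 tumours (median -0.016). Against isotype 38 were below 0 in BTZ+anti-PDL1 tumours (median -0.072) and 42 in anti-PDL1 tumours (median -0.059). Bag3, an HSF1 target and partner of HSPB8, had 104, 91.6 and 102 CPM in BTZ+anti-PDL1 tumours, 109, 112 and 92.4 CPM in anti-PDL1 tumours and 107, 128 and 103 CPM in isotype tumours. Its log2 fold change was -0.069 ± 0.105 in BTZ+anti-PDL1 against anti-PDL1 tumours (edgeR adjusted p = 0.952). Bag5, which encodes another exchange factor of HSP70, averaged 26.2 ± 1.09 CPM in BTZ+anti-PDL1 against 33.1 ± 0.784 CPM in anti-PDL1 tumours, without overlap (log2 fold change -0.34 ± 0.0765, edgeR adjusted p = 0.487). It was also lower without overlap than in isotype tumours, which averaged 32.7 ± 1.45 CPM (log2 fold change -0.32 ± 0.0765, edgeR adjusted p = 0.347). Hspa1l, which lies beside Hspa1a, had 5.16, 2.51 and 4.53 CPM in BTZ+anti-PDL1 tumours and 9.45, 15.8 and 4.39 CPM in isotype tumours, with isotype replicate 2 highest as for Hspa1b.

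Of 17 chaperones of the endoplasmic reticulum, whose induction belongs to the unfolded protein response rather than to HSF1, 14 were above 0 in BTZ+anti-PDL1 against anti-PDL1 tumours (median 0.11), and 5 of them did not overlap, where 7.33% of all genes did so. Against isotype 8 of the 17 were above 0 in BTZ+anti-PDL1 tumours (median -0.025) and 3 in anti-PDL1 tumours (median -0.11). Pdia6, a disulfide isomerase, averaged 829 ± 18.6 CPM in BTZ+anti-PDL1 and 733 ± 22.4 CPM in anti-PDL1 tumours (log2 fold change 0.18 ± 0.0602, edgeR adjusted p = 0.819). Of 32 constitutive proteasome subunit genes, 22 were above 0 in that comparison with a median of 0.012, and the intervals of all 32 lay within ±0.5. Against isotype 5 of the 32 were above 0 in BTZ+anti-PDL1 tumours (median -0.053) and 2 in anti-PDL1 tumours (median -0.072). Psma5, a ring subunit of the core, averaged 45.6 ± 5.63 CPM in BTZ+anti-PDL1 against 37.9 ± 2.06 CPM in anti-PDL1 tumours (0.27 ± 0.0962, edgeR adjusted p = 0.819). Of 18 genes of mitochondrial import and quality control, 8 were above 0 (median -0.0093), against 4 (median -0.067) in BTZ+anti-PDL1 against isotype and 2 (median -0.046) in anti-PDL1 against isotype tumours. Against isotype, Tomm20, a receptor of mitochondrial import, averaged 109.9 ± 5.69 CPM in BTZ+anti-PDL1 and 134 ± 4.53 CPM in isotype tumours, without overlap (-0.28 ± 0.0734, edgeR adjusted p = 0.42).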

How the data were processed

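Reads were counted by the authors, and the deposited table holds 1 whole-number count per gene and tumour, per the file headers. FPKM values, also made by the authors per the file headers, stand beside the counts. They imply gene lengths of 0.313 to 8.0 times the transcript length used here and so were not compared between genes. Per the submitters' processing notes, HISAT2 2.0.4, StringTie 1.3.3b and mm10 were used, in roles not stated. The counting tool, annotation and strand setting are not given in the sources used here. The loci of 11 of the 39 members overlap a coding gene on the opposite strand, and reads inside the overlaps cannot be told apart. These overlaps ran from 54 bases (Trap1 with Dnase1) to 39789 bases (Dnaja3 with Coro7). On the same strand, Dnaja3 overlaps the coding gene Vasn by 10814 bases. Hspa14 overlaps another coding gene entry of that name by 23965 bases. A strand setting does not separate same-strand overlaps. Libraries were prepared from total RNA (VAHTS Universal V6 kit), per the labels' protocols. Each replicate is a separate tumour, and groups follow the treatment label. For the BTZ+anti-PDL1 group, columns were assigned to tumours from the treatment and number in the column name.

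Column totals were 18.52 M to 21.51 M counts, and 13060 of 34745 genes had no count. Genes were tested with edgeR 4.0.16 (R 4.3.3), in 1 model with a mean for each group fitted to all 9 tumours, with TMM scaling, robust quasi-likelihood dispersions and 6 residual degrees of freedom. Low-count genes were removed by filterByExpr (minimum count 10), which kept 14506. Calls needed an adjusted p (Benjamini-Hochberg, over all genes kept) under 0.05. Standard errors of log2 fold changes had a median of 0.138. Intervals are 95% confidence intervals. CPM values are scaled by TMM, except marker sums and the single markers of the label, which are scaled by column totals only. On simulated counts with 200 of 14325 genes changed by 1 on the log2 scale, the edgeR fit recovered 84% in BTZ+anti-PDL1 against anti-PDL1 (10 false calls) and 81% in BTZ+anti-PDL1 against isotype (13 false calls). The changed genes were drawn only from those above a floor of mean CPM. Smaller changes were not simulated, and the members ran from -0.36 to 0.33 in BTZ+anti-PDL1 against anti-PDL1 tumours. The recovery therefore does not measure the power for changes of that size. Near-identical copies were found with blastn 2.17.0 (at least 90% identity over at least 20% of the transcript).

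Members named with values per tumour are a panel of inducible and regulatory genes, Bag3, and the 5 members with the smallest p in each comparison. From the other lists come the genes with the smallest p. Hsf2, Dnaja4 and the label markers were added after their values were seen. Members and lists were chosen with earlier results of these data known. Alternatives were RLE scaling, no low-count filter, a fit of just the 6 tumours in a comparison, replicate numbers as a block, DESeq2 1.42.0, limma 3.58.1 on log2(FPKM + 1) or log2(FPKM + 0.1), leaving out each tumour or the muscle-richest of each group, and Hspa1a summed with Hspa1b. Summing 3 other members with their copies was chosen after seeing the data.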

Additional observations from a re-analysis of the deposited data

How the results depend on the processing

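No member was called by edgeR with the settings of the report, and the only member called under any alternative was Dnajc21, by DESeq2 in BTZ+anti-PDL1 against isotype tumours (1 member). Counts of called genes over all genes were small and moved. In BTZ+anti-PDL1 against anti-PDL1 tumours (2 called) they were 4 without the low-count filter, 12 with only the 6 tumours compared, 60 by DESeq2, 0 without the muscle-richest tumours and 1 to 7 when single tumours were left out. In BTZ+anti-PDL1 against isotype tumours (1 called) they were 6 without the filter, 0 with only 6 tumours, 111 by DESeq2, 3 with either FPKM setting, 0 without the muscle-richest tumours and 0 to 20 without single tumours. In anti-PDL1 against isotype tumours (2 called) they were 3 with only 6 tumours, 15 by DESeq2, 0 without the muscle-richest tumours and 1 to 4 without single tumours. The median log2 fold change of the members ran, when single tumours were left out, from -0.041 to 0.087 in BTZ+anti-PDL1 against anti-PDL1, from -0.13 to -0.037 in BTZ+anti-PDL1 against isotype and from -0.15 to -0.087 in anti-PDL1 against isotype tumours. Without the muscle-richest tumours it was -0.059 in BTZ+anti-PDL1 against anti-PDL1 tumours, with 10 members above and 29 below 0. The cause of these moves was not tested.

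The main fit did not pair tumours by replicate number, and the values below cannot settle whether same-numbered tumours were handled together. Deviations of same-numbered tumours correlated at 0.393, 0.018 and 0.086 in BTZ+anti-PDL1 with anti-PDL1, at -0.434, 0.102 and -0.269 in BTZ+anti-PDL1 with isotype, and at -0.137, 0.243 and -0.16 in anti-PDL1 with isotype tumours. With the replicate number as a block 1 gene was called in BTZ+anti-PDL1 against anti-PDL1, 0 in BTZ+anti-PDL1 against isotype and 1 in anti-PDL1 against isotype tumours, and the block called no member. With 3 tumours a group, the interval stayed within 1.41-fold in both directions for 30 of 39 members in each BTZ+anti-PDL1 comparison. In anti-PDL1 against isotype tumours it did so for 28 members. Hspa1b, Hspb1 and Dnaja4, which had the widest intervals, were not bounded in this way in any comparison. In BTZ+anti-PDL1 against anti-PDL1 tumours, Hspa1a, Hspa2, Hspa4l, Hsph1, Dnajb1 and Dnajb4 were not bounded in this way either.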
